A study of Mus musculus with 14 samples.

Results

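Zic1, a zinc finger transcription factor, was high in 4 and low in 3 of 7 pools of neurons from the medial vestibular nucleus of the mouse, and the 4 pools were compared with the 3 across all genes. Pools were assigned by the Zic1 signal itself: a pool mean of 7 or more on the log2 scale was high (E1, E2, I1b and I3a, 8 arrays) and one under 5 was low (I1a, I2 and I3b, 6 arrays). These 14 arrays of 7 pools are the whole series. Zic1 levels are therefore a description without a test. All other p-values say how closely a gene followed a split that was drawn on the same arrays, after earlier results of these data were known.

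The medial vestibular nucleus is a brainstem nucleus that relays head motion and helps to steady gaze. Each pool is the amplified cDNA of single neurons of 1 cell type, hybridised to 2 arrays as technical replicates. For every pool the sources name mice of the YFP-16, GIN and GlyT2-13 reporter lines on the C57BL/6 background. The mice were aged 24 to 32 days after birth, and all groups share these named lines and ages. From which line each cell came is not given in the sources used here. Whether the pools hold the same mix of lines is therefore not known. These lines carry fluorescent reporters under regulatory sequences of Thy1, Gad1 and Slc6a5, which limits the pools to cells those reporters mark. How many cells or animals a pool holds is not given in the sources used here, and with 1 pool per type the pool is the replicate. The further type E3 named in the design was not analysed here.

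The Zic1-high pools are the excitatory types E1 and E2 and the inhibitory types I1b and I3a, and the Zic1-low pools are the inhibitory types I1a, I2 and I3b. The split thus crosses transmitter class, and it also cuts through the I1 and I3 families, each with 1 type on either side. No excitatory pool is Zic1-low. Hence the difference between excitatory and inhibitory types is partly contained in any comparison over all 7 pools, and the differences of the leading genes are given within the inhibitory pools as well.

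Zic proteins bind DNA through zinc fingers related to those of the Gli factors of Hedgehog signalling. In the embryo Zic1 marks the dorsal neural tube and the rhombic lip, from which cerebellar granule cells and many hindbrain neurons arise. Its expression lasts into adult life in cerebellar granule cells and in parts of the brainstem.

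Zic1 (Entrez 22771, GRCm38.p6 chromosome 9 from 91358058 to 91365768) was read by 1 probe set. Its pool means were 8.28 in E1, 9.85 in E2, 7.92 in I1b and 8.22 in I3a, against 3.63 in I1a, 2.71 in I2 and 3.0 in I3b. High pools averaged 8.57 ± 0.87 (SD, n = 4) and low pools 3.11 ± 0.47 (SD, n = 3). The pools nearest to the thresholds were I1b on the high side and I1a on the low side, with no pool between 3.63 and 7.92. Technical arrays differed by at most 0.04 in the high pools. In the low pools they differed by up to 0.67, so the order of I1a and I3b lies within their spread. E2 was highest, and E1 and I3a were close to each other. Zic5, the other family member analysed here, stayed near the floor of the scale, with its highest pool mean at 2.91 in E2. The floor is the value that the authors' background adjustment gives to probe sets without signal, here 2.387.

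Technical arrays of a pool correlated at r = 0.981 (I3a) to 0.992 (I2), a description across genes that are not independent replicates. The neuronal markers Rbfox3, Snap25 and Syt1 reached 5 in every pool, although Rbfox3 itself differed by 2.49 between the sides. None of 6 oligodendrocyte, 6 astrocyte and 4 microglial markers reached 5 in any pool, and their mean levels were 2.39 to 2.88 in the high pools and 2.39 to 2.91 in the low pools. Sox10, an oligodendrocyte lineage factor on that list, came closest at 4.57 to 4.86 in the high pools, against 4.64 to 4.82 in the low pools. Of 3 endothelial and mural markers, 1 reached 5, namely Rgs5 at 7.35 in the Zic1-low pool I2. Of 25 bacterial control probe sets with a mean of 5 or more, none parted the 2 sides, with differences of -0.58 to 0.25. Of all 32 control probe sets at that level, 1 did so, a probe set for B1 repeats.

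**Figure D1:**
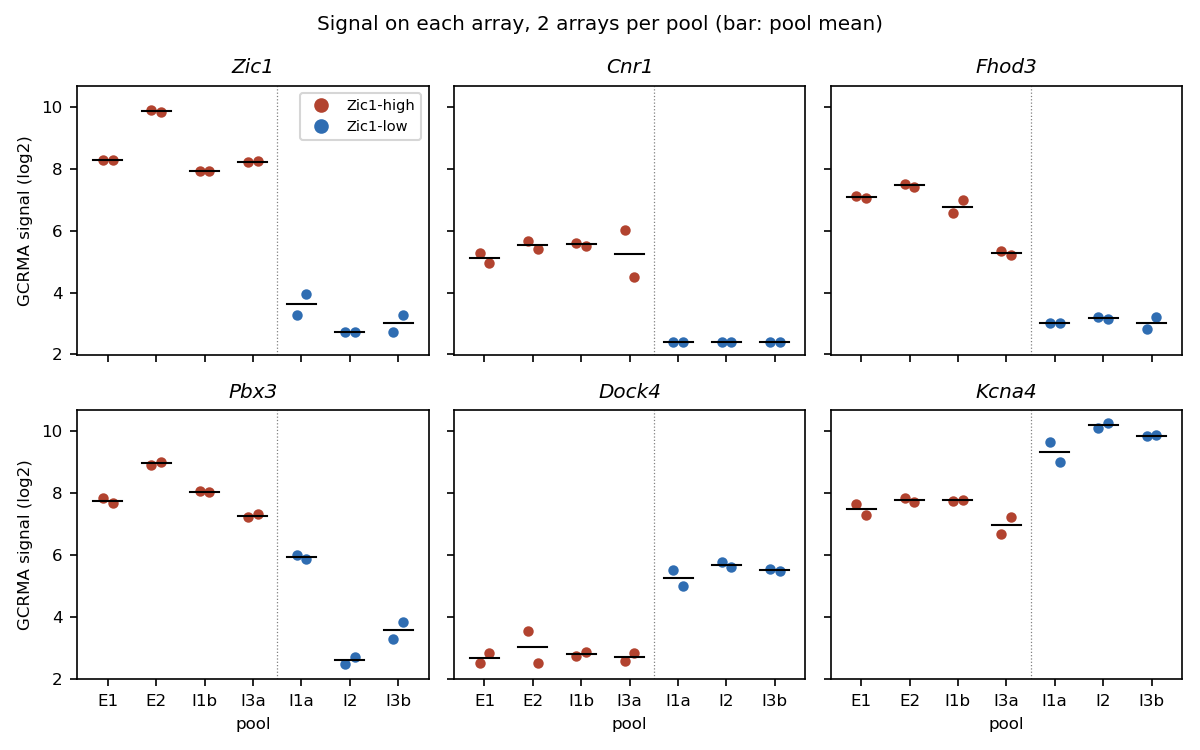
GCRMA signal on the log2 scale (vertical axis) for Zic1 and 5 other genes on each of the 14 arrays, by pool (horizontal axis), with Zic1-high pools left of the dotted line. Points are arrays and bars are pool means. Cnr1, Fhod3 and Pbx3 are higher in all 4 Zic1-high pools, and Dock4 and Kcna4 are higher in all 3 Zic1-low pools.

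Of 4408 genes other than Zic1 with a mean of 5 or more in at least 1 pool, 1 gene was called (0.0227%), and it was higher in the Zic1-high pools. Calls were made by limma on the 7 pool means, at a Benjamini-Hochberg adjusted p under 0.05 with a size of 1 log2 unit or more. Before adjustment, p was under 0.05 for 343 genes (7.78%), of which 202 were higher (4.58%) and 141 lower (3.2%). The size alone was reached by 151 genes that were higher (3.43%) and 148 that were lower (3.36%) in the Zic1-high pools. Pool means of the 2 sides did not overlap for 206 genes that were higher (4.67%) and 140 that were lower (3.18%), and both criteria were met by 47 (1.07%) and 44 (0.998%). With all 14 arrays and the pool as random block, 31 genes were called (0.703%), among them 9 of the 12 higher and 7 of the 12 lower genes described here. That fit counts the technical arrays of a pool as observations, with 1 correlation of 0.82 for all genes, although the pool is the replicate. The 12 genes per direction were chosen on the same differences, so their calls are not separate support. With quantile normalization, or with arrays centred on their median, the calls were 1 higher and 2 lower.

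Cnr1, the presynaptic cannabinoid receptor through which endocannabinoids dampen transmitter release, was the gene called (Entrez 12801, GRCm38.p6 chromosome 4 from 33923171 to 33948831). It read 5.11 in E1, 5.53 in E2, 5.56 in I1b and 5.26 in I3a, against 2.4 in I1a, 2.39 in I2 and 2.4 in I3b. All low pools lay at the floor and all high pools just above the level at which a gene is kept, so Cnr1 entered the test only through its high side. The difference was 2.97 log2 units (limma, SE 0.28, adjusted p 0.0365). Its size, error and p depend on where the floor lies: with values under 5 set to 5 the difference was 0.43 and the call was lost. Here as elsewhere in these pools, fewer cells with a transcript and less transcript per cell cannot be told apart.

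The Cnr1 call was also lost when arrays or pools were left out. Between the 2 arrays of I3a its signal was 6.01 and 4.5, and without replicate 1 of each pool no gene was called. Leaving out E1, E2, I1a, I1b, I3a or I3b also ended it, with adjusted p of 0.0672 to 0.275, while the difference lay between 2.9 and 3.05. Within the inhibitory pools Cnr1 differed by 3.01 (SE 0.5, adjusted p 0.999).

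Sequences before annotated starts of the leading genes were searched for short motifs because Zic and Gli factors recognise related sites. The promoters are those of RefSeq for GRCm38.p6, with 250 bases before each annotated start, and 21 of the 26 genes with the largest differences matched an entry. The core GACCACC, sought on both strands, was found before an annotated start of 3 of the 21, and in 2.34% of 32851 promoters. For each motif, a gene counted if any of its annotated starts had a match, whereas the percentages are of single promoters. Count and percentage are therefore unlike measures, and an excess was not tested. The longer Gli consensus GACCACCCA, which contains that core, was found in none of the 21 and in 0.225% of promoters. The core CCTGCTG was found in 1 of the 21 (Unc13c) and in 8.44% of promoters. Shown are the 3 stretches that hold it, with GACCACC or its reverse complement GGTGGTC in capitals, since Cnr1 was the gene called and Unc13c and Stum stood on opposite sides. The match began 190 bases before an annotated start in Cnr1, 235 in Unc13c and 170 in Stum. For Cnr1 and Unc13c that start is one of several and lies inside the span of the gene, so the stretch is not upstream of the whole gene. A match is a description and not a site of binding.
Cnr1 (chr4:33924014-33924263, plus strand): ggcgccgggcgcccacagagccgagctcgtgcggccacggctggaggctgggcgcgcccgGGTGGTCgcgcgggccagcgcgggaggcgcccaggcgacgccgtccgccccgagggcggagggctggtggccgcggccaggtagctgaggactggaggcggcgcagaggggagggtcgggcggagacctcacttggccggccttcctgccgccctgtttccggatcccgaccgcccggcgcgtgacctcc
Unc13c (chr9:73969038-73969287, minus strand): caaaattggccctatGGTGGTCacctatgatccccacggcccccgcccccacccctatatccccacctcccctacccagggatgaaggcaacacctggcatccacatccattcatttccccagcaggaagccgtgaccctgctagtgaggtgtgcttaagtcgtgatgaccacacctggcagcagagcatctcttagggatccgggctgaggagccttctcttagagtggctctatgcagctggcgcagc
Stum (chr1:180483505-180483754, minus strand): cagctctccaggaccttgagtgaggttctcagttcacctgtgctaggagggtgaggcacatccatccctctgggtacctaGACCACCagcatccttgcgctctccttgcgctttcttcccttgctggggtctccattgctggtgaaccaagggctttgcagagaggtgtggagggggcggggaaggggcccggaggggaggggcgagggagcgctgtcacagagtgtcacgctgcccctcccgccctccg

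Pbx3 was the transcription factor among the 12 genes with the largest higher values. Pbx3, a homeodomain partner of Hox proteins, read 7.75 in E1, 8.96 in E2, 8.04 in I1b and 7.27 in I3a, against 5.93 in I1a, 2.6 in I2 and 3.56 in I3b. No high pool overlapped a low one, and I1a lay closest. The difference was 3.98 log2 units (SE 0.77, adjusted p 0.292, not called) and 3.62 within the inhibitory pools. The other 2 kept genes of the Pbx and Meis list did not part the pools, and neither did the 2 Hox genes kept. Over all kept genes, 7.85% parted them. Another Pbx3 probe set lay at the floor in every pool.

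Crh, the stress peptide corticotropin-releasing hormone, had the largest difference of any gene without overlap, at 5.59 (SE 1.42, adjusted p 0.444) and 4.06 within the inhibitory pools. Its pool means were 10.87 in E1, 13.22 in E2, 8.29 in I1b and 9.69 in I3a, against 2.86 in I1a, 7.73 in I2 and 4.19 in I3b. The low side was wide, with I2 close to I1b. Cbln4, a cerebellin that bridges neurexins and postsynaptic receptors, read 7.87 in E1, 9.68 in E2, 8.08 in I1b and 7.64 in I3a, against 6.63 in I1a, 3.8 in I2 and 3.63 in I3b. It differed by 3.64 (SE 0.81, adjusted p 0.376) and by 3.18 within the inhibitory pools. Unc13c, a vesicle priming protein known from cerebellar granule cells, differed by 2.96 (SE 0.73) and by 2.42 within the inhibitory pools, with I3a at 4.62 barely above I1a at 4.53.

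Fhod3, a formin that assembles actin filaments, read 7.08 in E1, 7.45 in E2, 6.77 in I1b and 5.29 in I3a, against 3.01 in I1a, 3.19 in I2 and 3.02 in I3b. Its low pools lay close together near the floor, and the difference was 3.58 (SE 0.49, adjusted p 0.117) and 2.95 within the inhibitory pools. With I3a left out it was called at 4.03 (adjusted p 0.00335), beside Cntnap5a, a neurexin-like adhesion protein, at 3.55 (adjusted p 0.0015). In I3a itself Cntnap5a read 4.06, below the low pools at 4.08 to 4.31. Over all 7 pools Cntnap5a therefore overlapped, and its call rests on leaving out the pool that goes against the split. Cnn3, an actin-binding calponin, differed by 2.33 (SE 0.54) and Rbfox1, a neuronal splicing factor, by 2.98 (SE 0.92). Within the inhibitory pools the values were 1.96 for Cnn3 and 2.59 for Rbfox1. Another Rbfox1 probe set gave 0.21, with the same sign.

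The remaining 4 of the 12 genes with the largest higher values were Hspb8, Kif22, Cntn3 and Cav2. Hspb8, a small heat shock protein, differed by 4.37 (SE 0.98), with 4.79 in I3a to 9.46 in E1, against 2.49 in I2 to 3.69 in I1a. Kif22, a kinesin-like motor, differed by 3.05, Cntn3, a contactin, by 2.47 and Cav2, a caveolin, by 2.21. Within the inhibitory pools the differences were 3.37 for Hspb8, 3.02 for Kif22, 1.85 for Cntn3 and 2.14 for Cav2. Cntn3 parted the pools by little, at 4.1 in I3a and 4.05 in I1a. None of the 4 was called. The probe sets used for Hspb8, Kif22, Cntn3 and Cnn3 are of the kind whose probes may match several transcripts, and other probe sets of Hspb8, Kif22 and Cav2 did not reach 5. For 6 of the 12 genes every low pool lay under 5, so those genes were kept only through the high side.

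**Figure D2:**
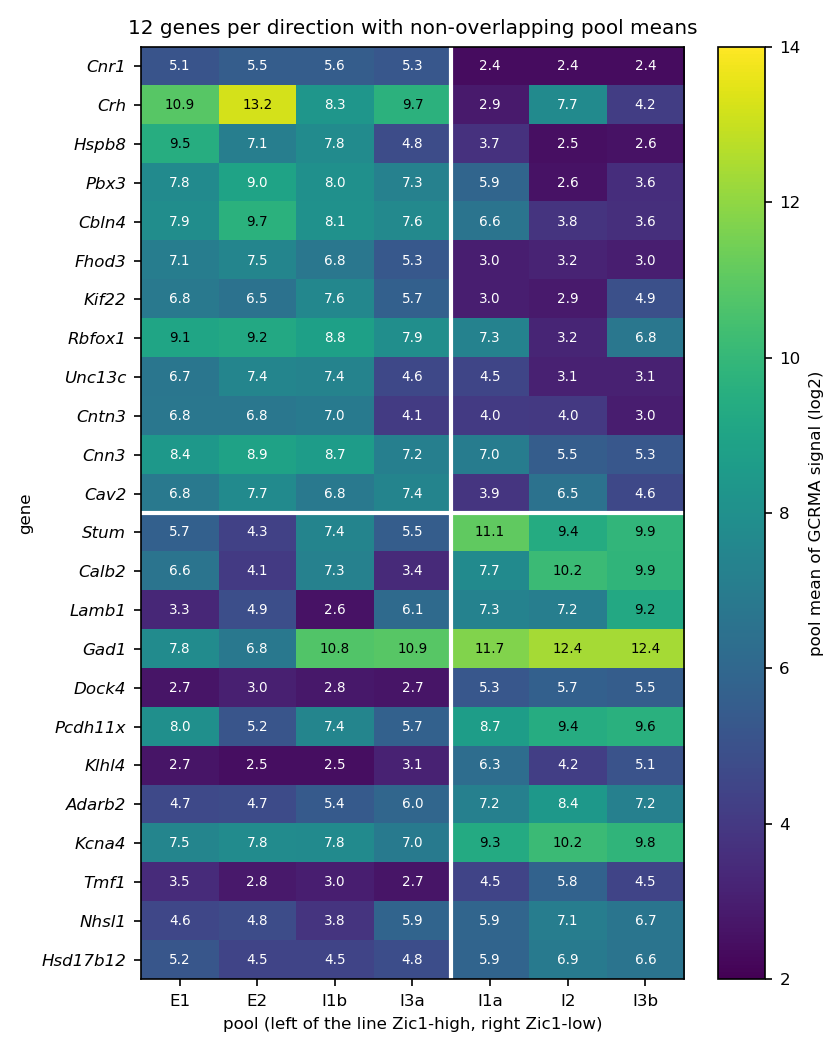
Pool means of the GCRMA signal on the log2 scale (colour and printed value) for the 12 genes per direction (rows) chosen by size of difference among genes without overlap, called genes first, in the 7 pools (columns). Zic1-high pools stand left of the white line, and genes higher in them stand above it. Cnr1 and Fhod3 show near-uniform low values on the right, whereas Crh in I2 reaches 7.73.

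On the lower side, Dock4 came closest to a call. Dock4, an activator of the small GTPase Rac, read 2.68 in E1, 3.04 in E2, 2.79 in I1b and 2.7 in I3a, against 5.26 in I1a, 5.69 in I2 and 5.52 in I3b. The Zic1-high pools lay near the floor and the low pools just above the level at which a gene is kept. Dock4 thus entered the test only through its Zic1-low side. Its 4 other probe sets did not reach 5, with differences of -0.21 to 0.1. Dock4 differed by -2.69 (SE 0.3, adjusted p 0.0636) over all pools and by -2.74 within the inhibitory pools. It was called with quantile normalization (adjusted p 0.0428), with centred arrays (0.037), without the filter on low signals (0.016) and without the intensity trend (0.00268).

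Kcna4, a potassium channel subunit of fast-inactivating A-type current, was abundant in every pool but lower in all Zic1-high ones. It read 7.48 in E1, 7.77 in E2, 7.76 in I1b and 6.96 in I3a, against 9.32 in I1a, 10.18 in I2 and 9.85 in I3b. The difference was -2.29 (SE 0.29, adjusted p 0.0955), and -2.43 within the inhibitory pools. It was called with quantile normalization and with centred arrays (adjusted p 0.037 in each). It was not called with any pool left out (limma, adjusted p 0.0716 to 0.475). Unlike Cnr1 and Dock4, it was well above the floor on both sides.

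Stum, named for a Drosophila gene of mechanical sensing, had the largest negative difference at -4.38 (SE 0.71, adjusted p 0.18). It read 5.69 in E1, 4.33 in E2, 7.4 in I1b and 5.53 in I3a, against 11.05 in I1a, 9.37 in I2 and 9.92 in I3b. Within the inhibitory pools it differed by -3.65. Adarb2, a brain protein of the RNA-editing deaminase family, differed by -2.41 (SE 0.42, adjusted p 0.206) and by -1.92 within the inhibitory pools, and its other probe set that reached 5 gave -2.68.

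Lamb1, a laminin chain of the extracellular matrix, differed by -3.68 (SE 0.9), and Pcdh11x, a protocadherin on the X chromosome, by -2.67 (SE 0.69). Lamb1 differed by -3.54 and Pcdh11x by -2.66 within the inhibitory pools. Calb2, the calcium buffer calretinin, differed by -3.91 (SE 1.06), with 3.44 in I3a to 7.29 in I1b, against 7.73 in I1a to 10.2 in I2. The 2 sides came closest at the I1 types, and the difference within the inhibitory pools was -3.89. Klhl4, Tmf1, Nhsl1 and Hsd17b12 made up the list with differences of -2.52 to -1.73. None of the 12 genes was called on pool means. For 3 of the 12, every high pool lay under 5.

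Gad1, the main enzyme of GABA synthesis, followed both the class and the split. It read 7.8 in E1, 6.8 in E2, 10.75 in I1b and 10.86 in I3a, against 11.71 in I1a, 12.38 in I2 and 12.36 in I3b. The difference of -3.1 (SE 1.01, adjusted p 0.585) was -1.34 within the inhibitory pools (SE 0.26, adjusted p 0.999). Cells were classified by transmitter genes, so the Gad1 level in E pools is not independent of the labels. Gad2, the other enzyme of GABA synthesis, differed by -1.62 over all pools and by -0.43 within the inhibitory ones. Its sides overlapped, with 8.99 in I3a against 8.41 in I1a and 8.9 in I2. Slc32a1, the vesicular GABA and glycine transporter, differed by -1.86 over all pools and by -0.18 within the inhibitory ones. Slc6a5, the neuronal glycine transporter, differed by -1.39 over all pools and by 0.36 within the inhibitory ones. Gad2, Slc32a1 and Slc6a5 were not called in either comparison. Slc17a6, the vesicular glutamate transporter that marks excitatory cells of this region, read 11.11 in E1, 10.98 in E2, 10.48 in I1b and 6.93 in I3a, against 8.6 in I1a, 3.11 in I2 and 3.19 in I3b. The I1 pools, labelled inhibitory, thus carried it at a high level beside Gad1 and Slc32a1, and it differed by 4.91 over all pools and by 3.74 within the inhibitory ones, without a call. The 2 sides overlapped.

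Whether the split holds without the excitatory types was asked with I1b and I3a against I1a, I2 and I3b. No gene of 4408 was called by limma (0%), where the lowest adjusted p was 0.965. At an unadjusted p under 0.05 there were 137 genes (3.11%). The fit has 3 residual degrees of freedom. A size of 1 or more was reached by 134 genes higher (3.04%) and 155 lower (3.52%).

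Among the 6 genes with the largest higher values in the inhibitory comparison, Cadps2 and Cnp were not among the 12 found over all pools. Cadps2, a priming factor of dense-core vesicles, read 6.46 in I1b and 5.86 in I3a, against 2.5 in I1a, 2.68 in I2 and 3.13 in I3b. It differed by 3.38 (SE 0.45, adjusted p 0.965), but E1 stood at 2.86 and E2 at 3.64. The E pools thus lay near the low pools. Cnp, an enzyme best known from myelin, read 6.62 in I1b and 9.14 in I3a, against 4.93 in I1a, 4.25 in I2 and 5.14 in I3b. E1 at 5.27 and E2 at 5.49 lay just above the low pools, and another Cnp probe set stayed at 2.49 or lower. Beside Cnp, Mog, Mag, Mobp, Olig1 and Olig2 stayed at 2.97 or lower in every pool. Mbp, a major myelin protein chosen here after its values were seen, moved with Cnp, at 5.5 in I1b and 6.2 in I3a, against 2.43 in I1a, 2.47 in I2 and 3.43 in I3b, with E1 at 2.68 and E2 at 2.94. The part of myelin RNA in these values was not tested.

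The 2 families allow a comparison of sister types, I1b with I1a and I3a with I3b, which share no pool. A difference of at least 1 in both pairs was seen for 52 genes higher in the Zic1-high sister (1.18%), for 40 lower (0.907%) and for 60 with opposite directions (1.36%). Alone, the I1 pair had 604 such genes (13.7%) and the I3 pair 465 (10.5%). Of these, 21 higher (0.476%) and 14 lower (0.318%) also parted all 7 pools. Crh differed by 5.43 in the I1 pair and 5.5 in the I3 pair, and Cnr1 by 3.16 and 2.86. For Dock4 the values were -2.47 and -2.81, for Stum -3.65 and -4.39, and for Kcna4 -1.56 and -2.9. Calb2 differed almost wholly in the I3 pair, at -6.42, against -0.43 in the I1 pair. Among the 12 genes per direction, 11 higher and 9 lower reached 1 in both pairs, which the choice of genes without overlap favours.

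**Figure D3:**
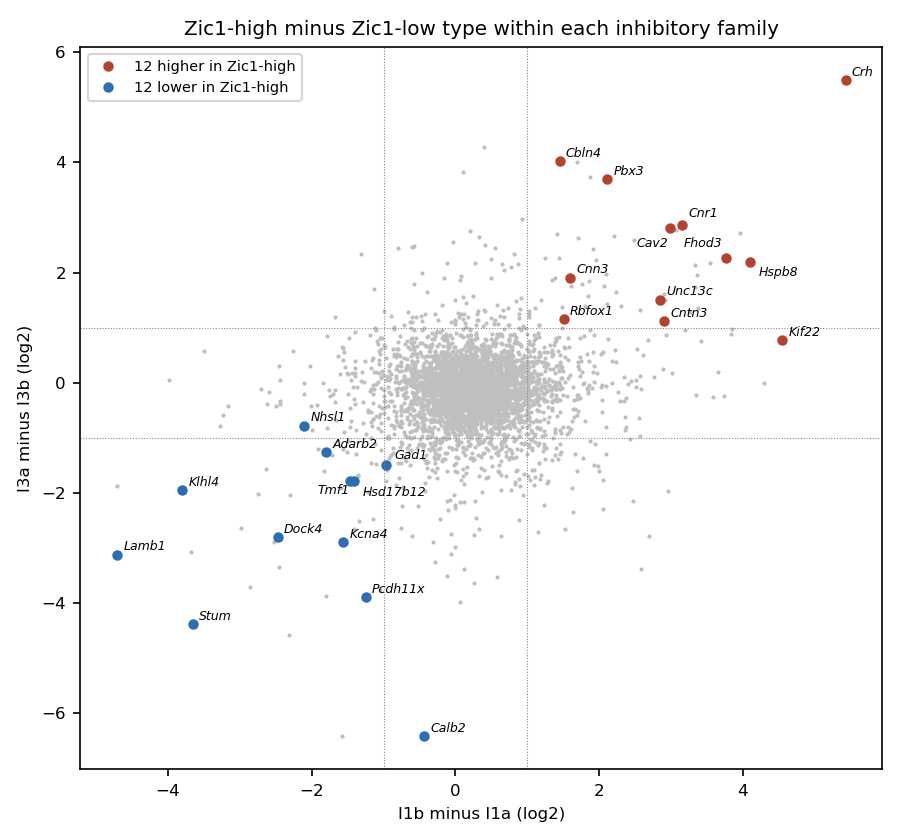
Difference between the Zic1-high and the Zic1-low type of each inhibitory family in log2 units, I1b minus I1a on the horizontal and I3a minus I3b on the vertical axis. Grey points are all 4408 kept genes other than Zic1, coloured points the 12 genes per direction named in the text, and dotted lines mark 1 log2 unit. Crh lies at 5.43 and 5.5, and Calb2 at -0.43 and -6.42.

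Gene lists were described by their counts and medians, beside a median of -0.01 over all kept genes. Among 9 calcium-binding proteins kept, 7 differed by at least 1 upward and 1 downward, beside 3.43% and 3.36% of all kept genes. The median was 1.44, and none was called (0.0227% of all genes). None of the 7 parted the groups, where 4.67% of all kept genes were higher without overlap. Pcp4, a calmodulin regulator, read 9.94 to 11.23 in the high pools, against 10.01 in I1a, 5.66 in I3b and 3.18 in I2, so it did not part the groups. Caln1, a calmodulin-like protein, differed by 2.92 and Necab1, a neuronal calcium-binding protein, by 1.92. The median within the inhibitory pools was 1.21.

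Fast-spiking channels showed 7 positive and 1 negative difference among 8 kept, with a median of 1.27 over all pools and 0.83 within the inhibitory ones. None was called (0.0227% of all genes). Scn4b, a sodium channel subunit, differed by 4.07, Kcna1, an axonal potassium channel, by 1.83 and Kcnc2, a channel of fast repolarisation, by 1.73. None of the 8 parted the groups, where 7.85% of all kept genes did so. Scn4b differed by 2.62 within the inhibitory pools. Its high side ran from 4.22 in I3a to 10.15 in E1, against 2.82 in I3b to 7.45 in I1a. All 4 neurofilament genes kept were positive, with a median of 1.36 over all pools and 0.67 within the inhibitory ones. None of the 4 parted the groups, beside the same 7.85% of all kept genes. With so few members, the lack of such genes says little about either list. Ion channels were among the genes by which the cells were classified, so this list is not independent of the pools.

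Other channels went both ways. Of 15 other potassium channel genes kept, 8 were positive and 7 negative, with a median of 0.08. Besides Kcna4, Kcnab1, a subunit that assembles with such channels, differed by 2.13 (SE 0.74) and by 2.9 within the inhibitory pools. Kcnn2, a calcium-activated channel, differed by -1.16. Neither Kcnab1 nor Kcnn2 parted the groups over all pools. Of 13 sodium, calcium and pacemaker channel genes, 9 were negative, with a median of -0.38.

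Receptors and adhesion genes held no common direction. Of 19 transmitter receptor genes kept, 5 were higher and 1 lower by at least 1, beside 3.43% and 3.36% of all kept genes, with a median of 0.06. Htr2c, a serotonin receptor, was the 1 of 19 that parted the groups, where 7.85% of all kept genes did so, at 8.98 in I3a to 10.55 in E1, against 7.03 in I2 to 8.49 in I1a. It differed by 1.92 (SE 0.46, adjusted p 0.394). Of 24 cell adhesion genes kept, 12 were positive and 12 negative. Of the 24, 3 were higher and 3 lower without overlap, beside 4.67% and 3.18% of all kept genes. Thy1, a surface protein whose regulatory sequences drive the YFP-16 reporter, differed by 3.55 (SE 1.03), and is not independent of how the cells were found. Its sides overlapped, at 9.62 in I3a against 10.3 in I1a.

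No gene of the Wnt, Hedgehog or BMP lists, pathways that act with Zic1 in the embryo, was called, where 0.0227% of all kept genes were. With so few calls in all, this says little about these lists. Of 8 Wnt pathway genes kept, 2 were positive and 6 negative, with a median of -0.22. Rspo2, a secreted Wnt enhancer, differed by 1.25, and Fzd3, a Wnt receptor of axon growth, by -1.03. Rspo2 was kept only through I1b at 5.07, and I3a at 2.88 barely exceeded the low pools at 2.62 to 2.84. The 3 genes kept of the Hedgehog and Gli list had a median of 0.08, and the 7 of the BMP and TGF-beta list one of -0.29 over all pools and 0.08 within the inhibitory ones. Of those 7, 3 were lower without overlap, against 3.18% of all kept genes, namely Smad7, Smad4 and Acvr1. Acvr1, a BMP receptor, differed by -0.74 and Smad4, a shared mediator of the pathway, by -0.62, the last 2 named after their values were seen. Both parted the pools by very little. Acvr1 rounded to 5.63 in both I3a and I1a, where the I3a arrays read 5.97 and 5.29. Smad4 read 4.48 in I1b against 4.57 in I3b, and was kept only through I2 at 5.15. Smad7, an inhibitor of TGF-beta signalling, differed by -1.54 (SE 0.52, adjusted p 0.594). Of the cerebellar granule cell genes, Gabra6, Cbln3 and Fat2 stayed at 2.77 or lower in every pool. Among 7 kept from that list, 2 were positive and 5 negative, with a median of -0.68 and of -0.55 within the inhibitory pools. Of these 7, 3 were lower without overlap, against 3.18% of all kept genes: Calb2, and, named after their values were seen, Kcnd2, an A-type potassium channel, at -0.98 and Nrep at -0.85.

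**Figure D4:**
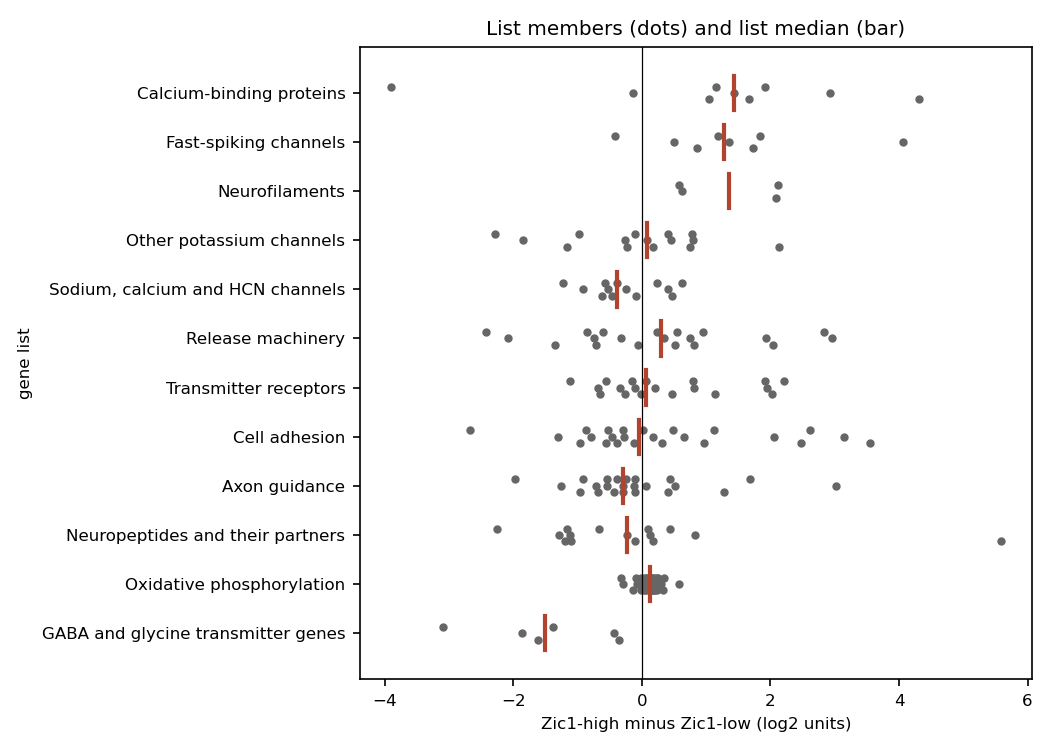
Difference between Zic1-high and Zic1-low pools in log2 units (horizontal axis) for the kept members of 12 gene lists (rows). Dots are genes and the red bar is the list median. Calcium-binding proteins have a median of 1.44 and the GABA and glycine list one of -1.5, while the oxidative phosphorylation genes lie close to 0.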

How the data were processed

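Per the submitters' processing notes, affy and GCRMA gave the deposited log2 signals. Versions are not given in the sources used here, and the log base was read from the values, which run from 2.387 to 15.9. No rescaling was applied. The table holds 30843 probe sets, of which 64 are controls and 24034 map to 1 gene symbol, checked through Entrez identifiers against RefSeq (GRCm38.p6). Each of 16244 genes was represented by its probe set with the highest mean, and 4409 genes with a pool mean of 5 or more in at least 1 pool were kept. On each array 15.1% to 16.4% of probe sets reached 5, and the number of pools limits the precision.

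Technical arrays were averaged per pool. The 2 sides were compared in limma 3.58.1 (R 4.3.3) with an intensity trend, on 7 pool means (5 residual degrees of freedom) and on the 5 inhibitory pools. Adjusted p-values are Benjamini-Hochberg over all kept genes other than Zic1. Differences are Zic1-high minus Zic1-low. P-values measure the spread between these pools only. Differences between sister pairs were tested on 14 arrays, so that error is technical.

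Named were Zic genes, the 12 largest differences per direction among genes without overlap (called genes first), 6 per direction on the inhibitory pools, up to 4 members per list with a difference of at least 1, and 6 transmitter genes. Clone-type symbols were not named. The members, the 31 lists and the split were chosen with earlier results of these data known. Of other probe sets of the 26 leading genes, 8 reached 5, all 8 with the same sign. The fit was checked on simulated data. Alternatives changed the floor, filter, normalization, probe set choice, variance model, pools, class term and replicate number. Figures were drawn with matplotlib 3.10.9.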

Additional observations from a re-analysis of the deposited data

Results flagged for a closer look

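In 27 genes, Zic1 and those with the largest differences, the 4 Zic1-high pools were screened for a pool far from the others, which chance finds in about 1 of 20 groups. Only Cntn3 met it, where I3a at 4.1 lay below E1, E2 and I1b at 6.77 to 6.95, a gap of 0.937 of the range.

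For 14 of these genes the Zic1-high sister type differed from the Zic1-low one by unlike amounts in the I1 and I3 families. The rule was an adjusted p under 0.05 and 1 log2 unit or more apart, tested on 14 arrays with technical error only. What share of all kept genes met the same rule is not given here. The count therefore does not set these genes, chosen for large differences, apart from the others. The I1 difference minus the I3 difference was 5.98 for Calb2 (adjusted p 2.65e-08), 3.78 for Kif22 (adjusted p 0.000187) and 2.64 for Pcdh11x (adjusted p 1.78e-05). It was -2.56 for Cbln4 (adjusted p 0.000253) and -2.31 for Cnp (adjusted p 8.69e-05). For Klhl4 it was -1.85, for Cntn3 1.78, for Pbx3 -1.59, for Lamb1 -1.58 and for Fhod3 1.49. Values of 1.34 for Unc13c, 1.33 for Kcna4, -1.32 for Nhsl1 and 1.23 for Cadps2 completed them, with adjusted p of 0.000426 to 0.0412 for these and the 5 genes before. The genes were chosen for pools that do not overlap, which fixes 1 sign for both families. Calb2 differed by -0.43 in I1 and by -6.42 in I3, and Kif22 by 4.55 and 0.77.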

How the results depend on the processing

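The count of 1 called gene became 0 with values under 5 set to 5, with a filter at 7, with class as a covariate, with the inhibitory pools only and, in a setting added once results were known, with both E pools and I2 left out. It became 2 without the filter on low signals and without the intensity trend, and 3 with quantile normalization or centred arrays, in each case with Cnr1 among them. Leaving out 1 pool gave 0 to 2 genes, and leaving out replicate 1 or 2 of the arrays gave 0 and 1. Fitting the 14 arrays with pools as random blocks called 31 genes, and 27 with the array number added as a replicate block. Both fits count technical arrays as observations and add no pools. Array numbers did not pair the pools, since deviations of same-numbered arrays correlated at -0.12 to 0.21 and exceeded 0.1 in 4 of 21 pairs of pools. Within the inhibitory pools the count was 0 in every alternative run. Slc6a5 reversed to 0.36 with class as a covariate or with the inhibitory pools only, and to 0.35 without the E pools and I2. Gal reversed to 0.07 and Rgs5 to 0.01 in that last setting, Igf1 to 0.23 without I3b (-3.28 without I2), and Rgs5 to 0.03 without I2 (-2.41 without I1a). The cause of these changes was not tested. Genes at or near the floor on one side, Cnr1 and Dock4 among them, have differences that depend on where the floor lies: with values under 5 set to 5, Cnr1 differed by 0.43 and Dock4 by -0.49.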

Other observations

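Oxidative phosphorylation genes differed little: 33 of 41 kept were positive, beside 2172 of 4408 genes in all, with a median of 0.13. The groups were parted upward by 4 of the 41, beside 4.67% of all kept genes. No member reached 1, and none was called (0.0227% of all genes). The release machinery list had 20 genes kept and a median of 0.29. Syt2, a fast calcium sensor of vesicle fusion, differed by 2.84 (SE 1.04), while Synpr, a synaptic vesicle protein, differed by -2.42 and Stx1a, a fusion protein of the nerve terminal, by -2.09. None of Syt2, Synpr and Stx1a parted the groups. Of the 20 genes kept, 3 were higher and 1 lower without overlap, beside 4.67% and 3.18% of all kept genes.

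Among 15 neuropeptide and partner genes kept, Crh was the 1 that differed by 1 or more upward, and 6 differed by as much downward. Over all kept genes the shares were 3.43% upward and 3.36% downward. None of the 15 was lower without overlap, beside 3.18% of all kept genes, so none of the 6 parted the groups. Cck, the peptide cholecystokinin, differed by -2.25, at 2.7 or lower in the high pools, against 4.8 in I1a, 7.0 in I2 and 2.44 in I3b. Gal, the peptide galanin, owed its -1.29 to I2 at 7.67, and Rgs5, an inhibitor of G protein signalling and a mural cell marker, its -1.6 to I2 at 7.35. Nrn1, a secreted protein of neurite growth, differed by 3.02, and Sema3e, a guidance cue, by -1.97. Within the inhibitory pools the values were 1.49 and -1.21. Neither gene parted the groups: Nrn1 read 3.08 in both I3a and I3b, and Sema3e 9.44 in I3a against 8.75 in I1a.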
